A study of Arabidopsis thaliana with 4 samples.

Results

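In seedlings of Arabidopsis thaliana, 104 rows of nuclear genes were strongly higher after prolonged heat in both genotypes studied, wild type (WT) and miR164OE, a line that overexpresses the microRNA miR164. They were found among the 32823 rows of a table of transcript levels in FPKM, that is, fragments per kilobase of transcript scaled to the mapped fragments of a library. A heat difference is log2(FPKM + 1) in the heat library minus log2(FPKM + 1) in the control library of the same genotype. A row was taken when its gene code lay on chromosomes 1 to 5, its mean over the 4 libraries was at least 20 FPKM, its locus spanned at least 300 bases, and its heat difference was at least 2 in each genotype, which is 4-fold on that scale. A further 3 rows were set aside by name, and 2 of these met the limits. The limits on level and span left 2434 eligible rows, and the 104 rows were 4.27% of them. The heat difference was at least 2 in 227 eligible rows in WT (9.33%) and in 191 in miR164OE (7.85%), so the 104 rows made up 45.8% of the first and 54.5% of the second. The rows were chosen by these FPKM values of all 4 libraries, so the heat differences below describe the set and were not tested. Levels are given as control against heat within a genotype.

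Whole seedlings of the ecotype Col-0 gave 4 RNA libraries, a control and a heat library of either genotype, so no spread between plants of a group could be estimated and every difference is between single libraries. All plants grew at 22 °C under 16 h of light and 8 h of dark. The heat libraries came from seedlings that were 5 days old when they were moved to 35 °C, where they stayed for 5 days, and the labels give no age for the control seedlings. The sources used here do not give the promoter behind miR164, the number of independent lines or the pooling of plants. miR164 is a plant microRNA that guides the cleavage of mRNAs for a group of NAC transcription factors. Of the tissue markers, all 5 shoot genes were above 0 in all 4 libraries, and their summed level was 536 against 184 FPKM in WT and 441 against 266 in miR164OE. All 5 were lower in heat in WT. In miR164OE, RCA, LHCB1.3 and PSAD1 were lower, while RBCS1A had 69.7 against 78.0 FPKM and GAPA 11.3 against 18.8. Of 5 root genes only PYK10 was above 0 in all 4 and 2 were listed at 0 throughout, with sums of 21.1 against 22.6 FPKM in WT and 24.8 against 46.9 in miR164OE, and the 4 seed genes were listed at 0. Fewer cells of a type and less RNA per cell cannot be told apart in such bulk samples, and the part of tissue makeup in the results below was not tested.

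The library kit was strand-specific, but the sources used here do not give the strand setting of the counting, so signal from a gene and from a gene overlapping it on the other strand cannot be told apart. Between 56.2% and 69.2% of all rows were listed at 0 per library. The worth of a single fragment was about 1.19 to 2.38 FPKM on 1 kb of transcript, an approximate value that gives the 87 members with at least 300 exon bases between 21.1 and 7364 fragments over the 4 libraries, with a median of 169. The median heat difference over all eligible rows was -0.04 in WT and -0.17 in miR164OE. Scaling the nuclear rows to a common sum moved these medians to 0.69 and 0.73. It moved the members' heat differences up by 0.37 to 0.78 in WT and by 0.53 to 0.94 in miR164OE.

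The response of plants to heat is led by heat shock factors, transcription factors that bind paired GAA and TTC units called heat shock elements and switch on chaperone genes. The same elements lie in the long terminal repeats (LTRs) of ONSEN, an Arabidopsis retrotransposon of the copia type known to be transcribed under heat. The nuclear genome also holds a long insertion of mitochondrial DNA beside the centromere of chromosome 2, whose genes are copies of genes in the organelle. Members of the set fell near both kinds of element, and were therefore split by position into 6 rows within 5 kb of an ONSEN copy, 12 rows of the mitochondrial DNA copy, 30 rows lying for at least 50% of their exon bases opposite a coding gene, and 56 other rows.

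The LTR windows of the 8 annotated ONSEN copies are shown because 3 of the 10 members with the highest smaller heat difference, LECRK56, AT5G13200 and AT1G21940, lay beside such copies. Each is given 5′ to 3′ on the strand of the copy, read from the TAIR10.1 genome, with the heat shock element cores GAANNTTC or TTCNNGAA in capitals.
ONSEN AT1G11265, chr1:3780878-3780926, plus strand: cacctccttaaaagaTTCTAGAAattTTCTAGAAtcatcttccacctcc
ONSEN AT1G21945, chr1:7717469-7717517, plus strand: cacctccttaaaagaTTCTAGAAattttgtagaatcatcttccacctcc
ONSEN AT1G48710, chr1:18013275-18013323, plus strand: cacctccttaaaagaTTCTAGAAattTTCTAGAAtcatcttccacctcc
ONSEN AT1G58140, chr1:21525273-21525321, minus strand: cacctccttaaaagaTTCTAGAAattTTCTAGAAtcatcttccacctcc
ONSEN AT3G32415, chr3:13369287-13369335, plus strand: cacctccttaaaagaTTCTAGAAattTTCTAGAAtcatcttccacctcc
ONSEN AT3G59720, chr3:22064003-22064051, plus strand: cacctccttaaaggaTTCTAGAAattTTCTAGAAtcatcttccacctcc
ONSEN AT3G61330, chr3:22695844-22695892, minus strand: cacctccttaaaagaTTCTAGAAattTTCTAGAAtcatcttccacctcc
ONSEN AT5G13205, chr5:4208384-4208432, minus strand: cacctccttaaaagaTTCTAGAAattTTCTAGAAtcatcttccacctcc
The window holds 2 cores in 7 of the copies and 1 in AT1G21945. Between copies, the aligned stretches of the internal regions were 97.2% to 99.9% identical over 28 pairs. None of the 8 copies had a row of its own among the deposited levels, so levels of the copies themselves could not be read.

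Of the 6 eligible rows within 5 kb of the annotated body of an ONSEN copy, 6 were members. All 6 were below 20 FPKM in both controls and reached the minimum mean through their heat libraries, so nothing is read from this share. They are coding genes on the strand opposite to the copy. LECRK56, a lectin receptor kinase gene (TAIR10 chromosome 3, 22064192 to 22065957), was listed at 1.301 against 294 FPKM in WT and at 5.98 against 772 in miR164OE. AT5G13200, which encodes a GRAM domain protein (chromosome 5, 4206738 to 4208289), was listed at 2.99 against 483 FPKM in WT and at 4.50 against 622 in miR164OE. AT1G21940, of uncharacterized function (chromosome 1, 7715170 to 7716975), had 3.997 against 708 FPKM in WT and 3.92 against 914 in miR164OE. By the rule, heat was above control within each genotype. All 3 rows were below 6 FPKM in both control libraries and at 294 FPKM or more in both heat libraries. Their heat differences were 7.001 and 6.79 for LECRK56, 6.92 and 6.82 for AT5G13200, and 7.15 and 7.54 for AT1G21940, in WT and miR164OE.

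The other ONSEN neighbours had lower heat levels, again above control in each genotype as the rule requires. AT1G11270, an F-box gene whose span contains the whole copy AT1G11265, was listed at 2.53 against 155 FPKM in WT and at 1.25 against 172 in miR164OE. AT3G61320, which encodes a bestrophin-like protein, a family of chloride channels, was listed at 1.52 against 143 FPKM in WT and at 1.81 against 182 in miR164OE. AT1G58120 was listed at 0 in both controls and at 68.0 and 66.7 FPKM in WT heat and miR164OE heat. In all 6 neighbours the heat differences of the genotypes lay less than 1 apart, as they did in 65 of the 104 members. Of all eligible rows, only 11.7% were at least 1 higher in miR164OE and 15.8% at least 1 lower.

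The exons of 4 of these members reach into an LTR, by 138 bases in LECRK56, 189 in AT3G61320, 207 in AT5G13200 and 214 in AT1G11270, which is between 7.81% and 14.2% of their exon bases. AT1G21940 lies 379 bases upstream of its copy and AT1G58120 lies 2535 bases downstream. Rows within 5 kb of the outer ends of the repeats were counted above a lower and a higher minimum mean. A row can pass either through its heat libraries alone, so nothing is read from the counts. A mean of 1 FPKM was reached by 14 rows, and 7 of them had heat differences of at least 2 in both genotypes. The same 7 were among the 8 rows that reached 5 FPKM. The seventh is AT1G48698, a non-coding row 274 bases from AT1G48710 on the same strand, listed at 0 against 17.97 FPKM in WT and at 1.66 against 20.9 in miR164OE, whose mean was too low for the set. The eighth is AT3G09635, 4651 bases from the repeat of AT3G61330, with 97.9 against 159 FPKM in WT and 28.4 against 116 in miR164OE. It is 1 of 2 further eligible rows between 5 and 10 kb of the body of a copy. The other, AT3G59695, had 101 against 181 FPKM in WT and 124 against 135 in miR164OE. HLECRK, another lectin receptor kinase gene 5141 bases from AT3G59720, was listed at 0.875 against 31.8 FPKM in WT and at 1.67 against 17.0 in miR164OE. No row beside AT3G32415 was above 0 in any library.

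**Figure D1:**
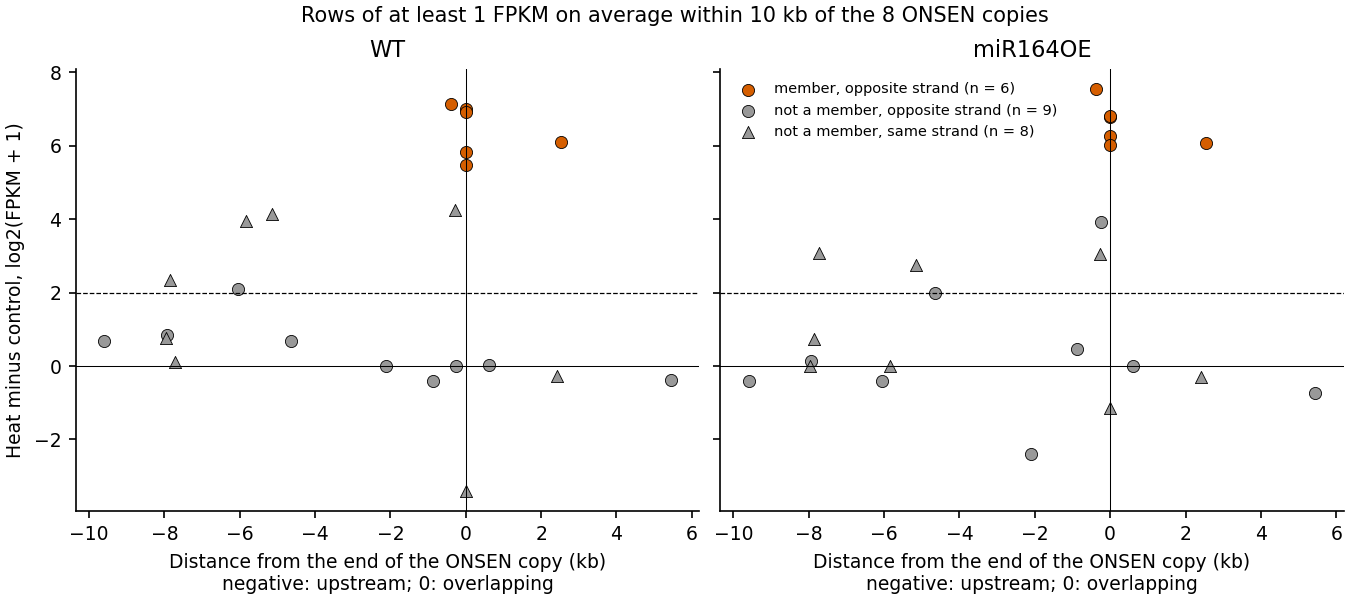
Heat difference in log2(FPKM + 1) against distance in kb from the outer end of the nearest ONSEN copy, for rows whose mean reached 1 FPKM, in WT and miR164OE. The 6 members, all on the opposite strand, lie above 5 in both genotypes, while most other rows within 10 kb lie below the dashed line at 2.

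The mitochondrial DNA copy gave 12 members of 13 eligible rows, a share from which nothing is read, since 5 of the 12 were below 20 FPKM in both controls and reached the minimum mean through heat. All lie between bases 3263619 and 3502294 of chromosome 2 (TAIR10), a stretch of 238.676 kb. Their exons matched the mitochondrial genome over at least 96.9% of their bases, and 10 of the 12 had a best match of 100% identity, so fragments from the nucleus and from the organelle cannot be told apart in them. Their summed level was 453 against 9066 FPKM in WT and 389 against 10800 in miR164OE, a ratio of 20.002 and 27.8. The rows encoded in the mitochondrion itself had sums of 1172 against 28927 FPKM in WT and 1350 against 34963 in miR164OE, a ratio of 24.7 and 25.9. The first ratio is over rows selected on their heat differences and the second over rows that were not, so the ratios are not compared.

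The highest row of the copy was AT2G07739, annotated as a Ycf1 protein gene, which also matched the plastid genome over 92.5% of its exon bases. It had 93.9 against 2462 FPKM in WT and 97.4 against 2654 in miR164OE. AT2G07738, 2725 bases away, was listed at 0 in both controls and at 306 and 344 FPKM in WT heat and miR164OE heat. AT2G07695, whose product is like subunit II of cytochrome c oxidase, an enzyme of the respiratory chain, was the lowest in WT heat, with 5.49 against 32.1 FPKM in WT and 3.17 against 50.6 in miR164OE. AT2G07599 had 13.9 against 916 FPKM in WT and 18.4 against 1124 in miR164OE, and AT2G07787 had 41.9 against 891 in WT and 35.1 against 1108 in miR164OE. AT2G07835 had 47.4 against 1366 FPKM in WT and 56.2 against 1922 in miR164OE, and AT2G07661 was listed at 0 in both controls and at 55.1 and 29.9 in WT heat and miR164OE heat. In all 12 rows each heat library was above both controls, an order that the rule fixes within each genotype. The eligible row that was no member, AT2G05255, had 20.9 against 49.1 FPKM in WT and was listed at 0 against 154 in miR164OE. Of the 108 rows of the stretch, 57 were listed at 0 in all 4 libraries and 45 reached a mean of 1 FPKM, of which 31 had heat differences of at least 2 in both genotypes. A row can reach that mean through its heat libraries alone, and the share of all nuclear rows past this limit is not given here. Nothing is therefore read from this count.

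**Figure D2:**
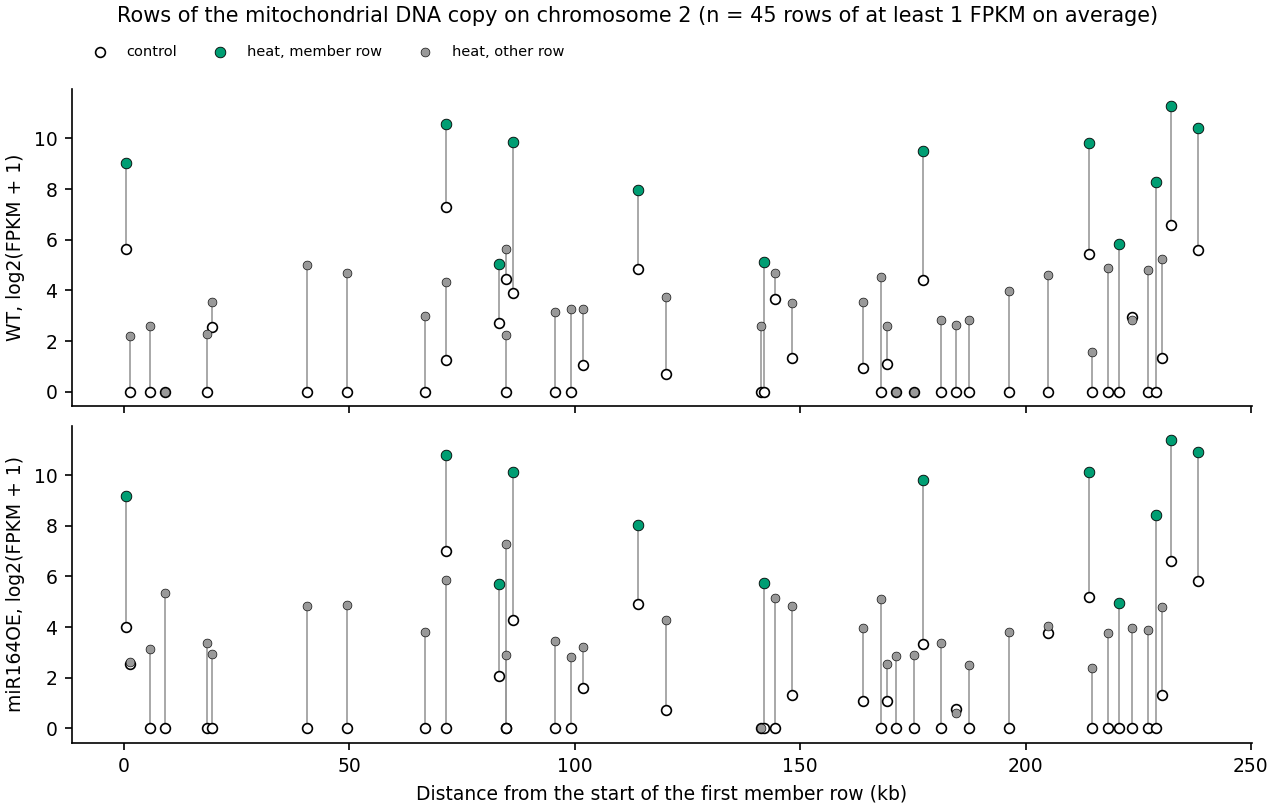
Levels in log2(FPKM + 1) of 45 rows of the mitochondrial DNA copy against distance in kb from the start of the first member, with control as open and heat as filled points, for WT above and miR164OE below. Only rows whose mean reached 1 FPKM are shown, which leaves out 57 rows of the stretch listed at 0 in all 4 libraries. All 12 members, by the choice of rows, and most of the other rows shown lie higher in heat than in control.

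The 30 members lying mainly opposite a coding gene held the highest single levels and the shortest exons. They comprise 21 long non-coding RNAs, 8 coding genes and 1 antisense RNA, and they are 3.33% of the 901 eligible rows in this position, near the 4.27% of all eligible rows. Their median exon length was 323 bases, 14 had under 300 bases, and 15 were listed at 0 in both controls. On rows this short a single fragment is worth many FPKM, and the estimate is the least certain.

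AT3G48298 (chromosome 3, 17885542 to 17885667), of 126 exon bases, lies opposite the exons of CYP71A23, a cytochrome P450 gene, and was listed at 0 in both controls and at 1514 and 748 FPKM in WT heat and miR164OE heat. AT5G14560, of 123 exon bases, has 92 of them opposite AT5G14550, a glycosyltransferase gene, and was listed at 0 in both controls and at 1288 and 1489 FPKM in the heat libraries of WT and miR164OE. AT1G72755, of 124 exon bases, lies opposite the exons of TIM23-2, a subunit of the protein import channel of the mitochondrial inner membrane, and was listed at 0 in both controls and at 1242 and 471 FPKM there. AT3G03295, of 212 exon bases, lies opposite AHP4, a phosphotransfer protein of cytokinin signalling, and was listed at 0 in both controls and at 265 and 124 FPKM in WT heat and miR164OE heat. The first 3 of these rows have the highest heat differences of the set in both genotypes, and each rests on a row listed at 0 in both controls, so no fold is given.

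Other rows of this position were measured in the controls too. AT3G01205, opposite the AIG2-like gene AT3G02910, was the most abundant member, with 856 against 3509 FPKM in WT and 777 against 4082 in miR164OE. AT3G03215, opposite PDX1.2, a heat-inducible partner of the vitamin B6 synthase, had 185 against 2138 FPKM in WT and 199 against 1830 in miR164OE. AT5G41612, opposite CHX18, a cation/proton exchanger gene, had 27.0 against 146 FPKM in WT and 26.6 against 117 in miR164OE. In all 3 rows both heat libraries were above both controls, which the rule fixes within each genotype.

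Among the 8 coding members of this position, SMR5 (chromosome 1), an inhibitor of cyclin-dependent kinases, lies wholly opposite FTSH10, a protease of the mitochondrial inner membrane. SMR5 was listed at 0 in both controls and at 38.8 and 43.2 FPKM in WT heat and miR164OE heat, while FTSH10 had 160 against 167 FPKM in WT and 168 against 155 in miR164OE. GRXC7, a glutaredoxin gene also known as ROXY1 for its part in petal development, lies wholly opposite ACR6 and had 5.92 against 35.9 FPKM in WT and 2.01 against 40.0 in miR164OE. Heat and control did not overlap in either row, which the rule fixes within each genotype.

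The rows of the coding genes on the other strand were also read. Of the 30 opposite genes, 14 reached a mean of 1 FPKM and 8 were listed at 0 in all 4 libraries. Of the 14, 2 were at least 2-fold higher after heat in both genotypes and 0 were lower in both, beside 14.5% of all 10372 nuclear rows at or above that mean that were 2-fold higher in both. Their median heat difference was 0.00 in WT and 0.24 in miR164OE. The 2 were AT3G02910, at 12.3 against 60.8 FPKM in WT and 27.8 against 74.1 in miR164OE, and AT3G29637, which is itself a member. The row of AT5G14550 had 309 against 228 FPKM in WT and 355 against 204 in miR164OE, and that of PDX1.2 was listed at 0 against 1.53 in WT and at 0 against 1.62 in miR164OE. Over all rows, 58 members (55.8%) shared at least 1 exon base with a gene on the other strand, against 71.1% of eligible rows.

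**Figure D3:**
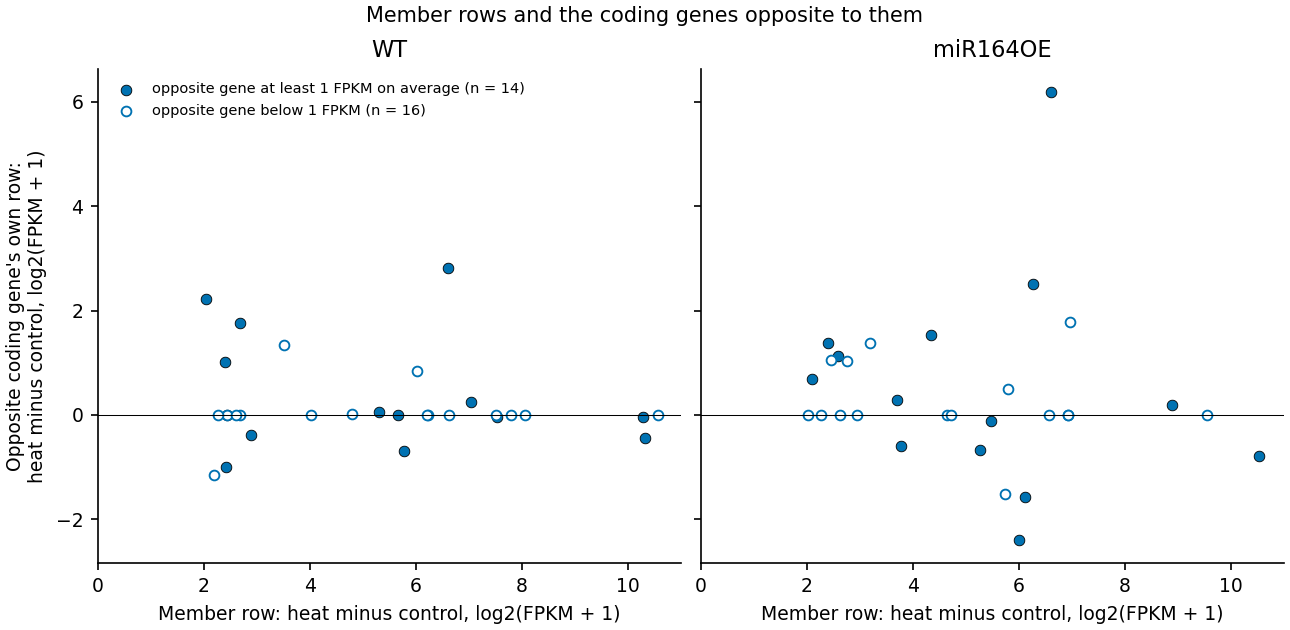
Heat difference in log2(FPKM + 1) of the coding gene on the other strand against that of the member, for the 30 members lying mainly opposite a coding gene, in WT and miR164OE. The members lie between 2.03 and 10.6, and above 2 by the choice of rows. The 14 opposite genes whose mean reached 1 FPKM scatter about a median of 0.00 in WT and 0.24 in miR164OE. They were taken for their position and not for their heat differences, so the members and the opposite genes are not compared.

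The remaining 56 members were mainly longer coding genes, 48 of them coding for protein and 8 non-coding, with a median exon length of 1163.5 bases. They are 3.7% of 1514 eligible rows in this class. The 37 rows above 0 in both controls had a median heat difference of 2.65 in WT and 2.69 in miR164OE. By annotated product, 30 of the coding rows were put into 7 groups of function after their values had been seen, so the groups only order the description.

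Among genes of membrane transport, GORK, the outward-rectifying potassium channel of guard cells (chromosome 5, 14889245 to 14895233), had 4.69 against 138 FPKM in WT and 0.628 against 58.8 in miR164OE. NRT2.6, a member of the high-affinity nitrate transporter family, had 3.44 against 50.2 FPKM in WT and 2.25 against 25.1 in miR164OE. NIP2-1, an aquaporin-like channel, had 7.58 against 63.4 FPKM in WT and 12.5 against 68.7 in miR164OE. As the rule requires, heat was above control in each genotype for all 3, by 2.37 to 5.20 on the log2 scale.

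Of signalling genes, PYL6, a receptor of the stress hormone abscisic acid, had 9.69 against 45.4 FPKM in WT and 7.86 against 48.1 in miR164OE. RAS1, a gene named for its response to abscisic acid and salt, had 17.0 against 81.5 FPKM in WT and 20.1 against 88.8 in miR164OE. Their heat differences, between 2.09 and 2.47, were near the limit of the set.

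In protein turnover, PUB21, which encodes a ubiquitin ligase of the U-box type (14887429 to 14889151 on chromosome 5), was listed at 0 against 367 FPKM in WT and at 4.15 against 219 in miR164OE. AT3G61410, a U-box kinase gene, was listed at 0 against 52.9 FPKM in WT and at 8.34 against 52.1 in miR164OE. The F-box gene AT5G60060 had 6.29 against 45.1 FPKM in WT and was listed at 0 against 34.8 in miR164OE. Both U-box genes were listed at 0 in WT control, and the F-box gene in miR164OE control.

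The DNA-binding group held 5 members with heat differences from 2.05 to 7.89. MAF4, a MADS-box repressor of flowering related to FLC, had 7.58 against 51.9 FPKM in WT and 1.91 against 30.6 in miR164OE. PBRP1, a plant-specific relative of the general transcription factor TFIIB, had 13.02 against 69.6 FPKM in WT and 6.25 against 60.2 in miR164OE. AT5G41765, annotated as a storekeeper-related regulator, was listed at 0 against 237 FPKM in WT and at 10.5 against 143 in miR164OE. BHLH67, a bHLH gene, had 6.51 against 44.5 FPKM in WT and 3.24 against 41.3 in miR164OE. AHL17, an AT-hook gene, had 7.86 against 49.3 FPKM in WT and 11.96 against 52.6 in miR164OE.

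At the cell wall and surface, AGP7, an arabinogalactan protein gene, had 1.64 against 47.4 FPKM in WT and 9.28 against 57.6 in miR164OE. PME42, a pectin methylesterase gene, had 19.1 against 188 FPKM in WT and 27.95 against 117 in miR164OE. EXPA20, an expansin gene of the wall-loosening family, had 10.5 against 46.4 FPKM in WT and 6.199 against 54.0 in miR164OE. The 5 members of this group had median heat differences of 2.57 in WT and 2.51 in miR164OE.

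Of metabolism, organelles and translation, AT2G18193, which encodes an ATPase of the P-loop type (chromosome 2, 7917413 to 7919345), was listed at 0 in both controls and at 228 and 162 FPKM in WT heat and miR164OE heat. RPL34C, a protein of the large ribosomal subunit, had 1.37 against 89.2 FPKM in WT and 2.82 against 47.4 in miR164OE. The gene ndhS, for a subunit of the chloroplast NADH dehydrogenase-like complex, had 25.97 against 140 FPKM in WT and 12.3 against 146 in miR164OE. DRT101, a phosphoglucosamine mutase-like gene, and PVA13, of a family of membrane contact proteins, were also members, PVA13 with 4.73 against 124 FPKM in WT and 5.69 against 62.9 in miR164OE. In the group of inhibitor and lipid-transfer proteins, KTI1, a Kunitz inhibitor of trypsin, had 4.94 against 124 FPKM in WT and 12.7 against 126 in miR164OE, and outside the groups the uncharacterized gene AT2G05915 was listed at 0 in both controls and at 499 and 294 FPKM in the heat libraries of WT and miR164OE.

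**Figure D4:**
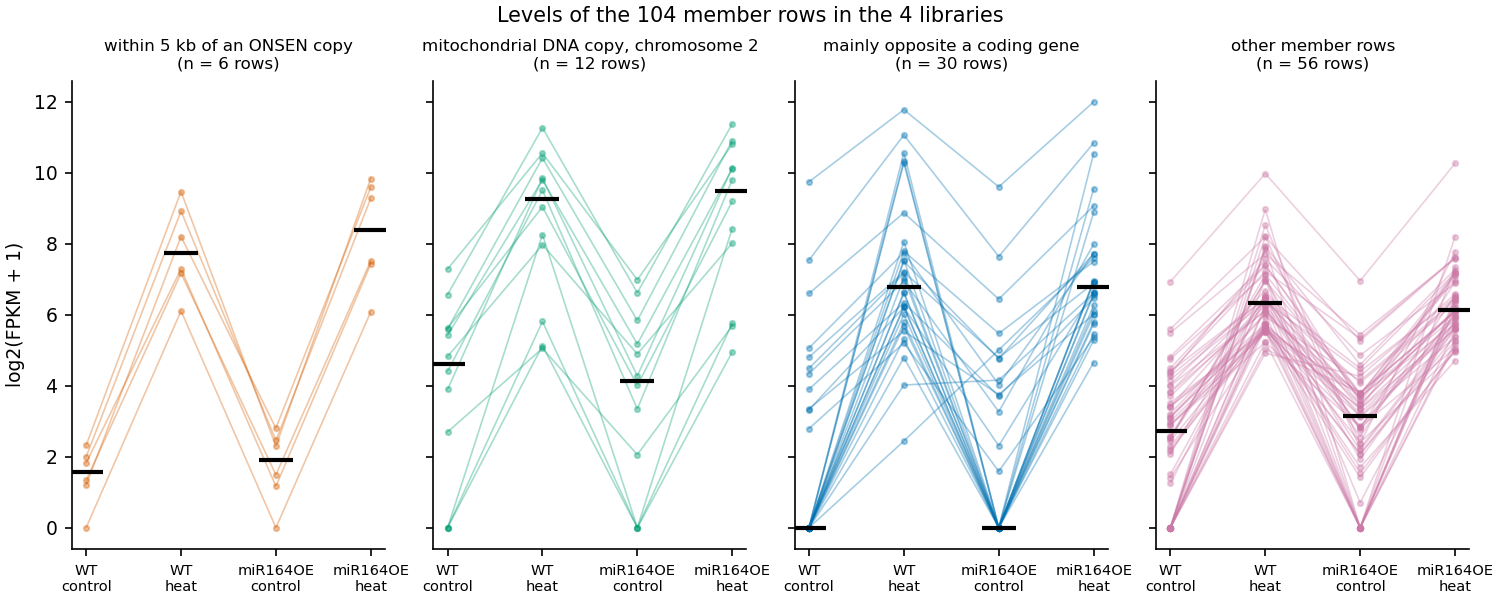
Levels in log2(FPKM + 1) of the 104 members in the 4 libraries, in 4 panels by position, with 1 line per row and a black bar at the median. Each line is higher in the heat library than in the control library of its genotype by construction, and the median of the rows opposite a coding gene is 0 in both controls.

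Few genes of the heat shock response were abundant enough to be eligible, and on 4 lists the eligible ones missed the fold limit in at least 1 genotype. A list of 17 small heat shock protein genes, one of 24 HSP100, HSP90 and HSP70 chaperones and partners, one of 12 genes of folding in the endoplasmic reticulum and one of 22 regulators of the heat shock response had 2, 1, 0 and 2 eligible rows, in that order, and 0 members each. At any level, 5, 2, 0 and 1 of their rows had heat differences of at least 2 in both genotypes. Of 15 small heat shock protein rows whose mean reached 1 FPKM, 10 were at least 2-fold higher after heat in both genotypes, against the same 14.5% of all nuclear rows. A row can reach that mean through its heat libraries alone, so nothing is read from the counts of this list or the others. HSP17.4 and HSP21, for example, were listed at 0 in both controls. In single genotypes 11 were higher and 0 lower in WT, and 12 higher and 1 lower in miR164OE, where the shares of all such rows were 29.2% higher and 22% lower in WT and 32% higher and 17.3% lower in miR164OE. The list's medians were 1.66 in WT and 2.39 in miR164OE, on the log2 scale. The 2 eligible rows of this list were HSP18.2 and HSP15.7. HSP18.2 had 25.1 against 64.9 FPKM in WT and 24.4 against 113 in miR164OE, so its heat difference was 1.33 in WT and 2.16 in miR164OE. The other lists, over rows that reached the same mean, had 6 of 20 higher in both genotypes for the larger chaperones, 3 of 11 for folding in the endoplasmic reticulum and 2 of 8 for the regulators. The larger chaperones had 6 higher and 4 lower in WT and 17 higher and 1 lower in miR164OE, with median heat differences of 0.39 and 2.46. The difference between the genotypes was not tested. Folding genes were higher in 5 rows in WT and 8 in miR164OE and lower in 0, and regulators were higher in 3 and 4 and lower in 0 and 1. The row of the heat shock factor HSFA2 was listed at 0 in all 4 libraries, and HSFC1 had 173 against 89.4 FPKM in WT and 179 against 50.2 in miR164OE. A list of 6 other heat-induced genes had 4 of 5 higher in both and held 1 member, PUB21.

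Of the members, 13 had another member within 10000 bases, and 7 of these 13 lie in the mitochondrial DNA copy. The share of eligible rows with another eligible row as near is not given here, so nothing is read from this count. PUB21 and GORK face each other tail to tail with 93 bases between them, and both were below 5 FPKM in the controls and above 58 FPKM in the heat libraries. AT3G05855 and AT3G29637 overlap on opposite strands of chromosome 3. AT3G05855 was listed at 0 in both controls and at 97.0 and 96.0 FPKM in WT heat and miR164OE heat, and AT3G29637 had 8.29 against 64.6 FPKM in WT and was listed at 0 against 72.2 in miR164OE. AT4G03685 and AT4G00670, a remorin gene, lie 6593 bases apart on chromosome 4. AT4G03685 was listed at 0 in both controls and at 97.9 and 24.1 FPKM in the heat libraries of WT and miR164OE, and AT4G00670 had 32.4 against 215 FPKM in WT and 15.3 against 210 in miR164OE. AT3G05855, AT3G29637, AT4G03685, AT4G34080 and AT3G41762 each match another nuclear locus over at least 50% of their exon bases at 95% identity or more, so their levels are uncertain.

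A neighbour with the same direction outside the set was HSP17.6A-CI, a small heat shock protein gene lying tail to tail with the member AT1G59865, 62 bases away. AT1G59865 had 13.2 against 89.2 FPKM in WT and 5.97 against 121 in miR164OE, and HSP17.6A-CI had 0.891 against 26.03 FPKM in WT and 3.70 against 27.0 in miR164OE. Neighbours could also differ. CYP72A10, a cytochrome P450 gene, had 4.46 against 51.3 FPKM in WT and 4.27 against 29.9 in miR164OE, while CYP72A9, 54 bases away in the same tandem, had 53.8 against 20.3 in WT and 77.8 against 18.1 in miR164OE. CYP72A11 on the other side had 7.96 against 34.9 FPKM in WT and 12.2 against 26.8 in miR164OE.

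Promoter windows of members that hold a heat shock element core are shown for the neighbouring pair PUB21 and GORK, for the gene facing HSP17.6A-CI, and for SMR5 and AT5G14560. Each is given 5′ to 3′ on the strand of its gene (TAIR10.1), with the core in capitals.
PUB21, chr5:14887264-14887303, plus strand: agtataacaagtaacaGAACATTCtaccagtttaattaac
GORK, chr5:14895453-14895483, minus strand: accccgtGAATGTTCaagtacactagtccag
AT1G59865, chr1:22033346-22033385, minus strand: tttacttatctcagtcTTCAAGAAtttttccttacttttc
SMR5, chr1:2305103-2305142, minus strand: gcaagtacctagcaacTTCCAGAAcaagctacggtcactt
AT5G14560, chr5:4693889-4693928, plus strand: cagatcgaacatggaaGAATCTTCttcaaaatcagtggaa
The cores end 141, 235, 64, 87 and 51 bases before the annotated starts of these genes, in that order. A core GAANNTTC or TTCNNGAA, each of which reads the same on both strands and may overlap the other, was present in the 250 bases upstream of 22 members (21.2%). The share was 19% of eligible rows and 16.3% of all 37899 nuclear genes of the annotation. The longer form of 3 adjoining units was present in 0 members, against 0.575% of eligible rows and 0.385% of all genes. The share in members was thus near that in all eligible rows.

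**Figure D5:**
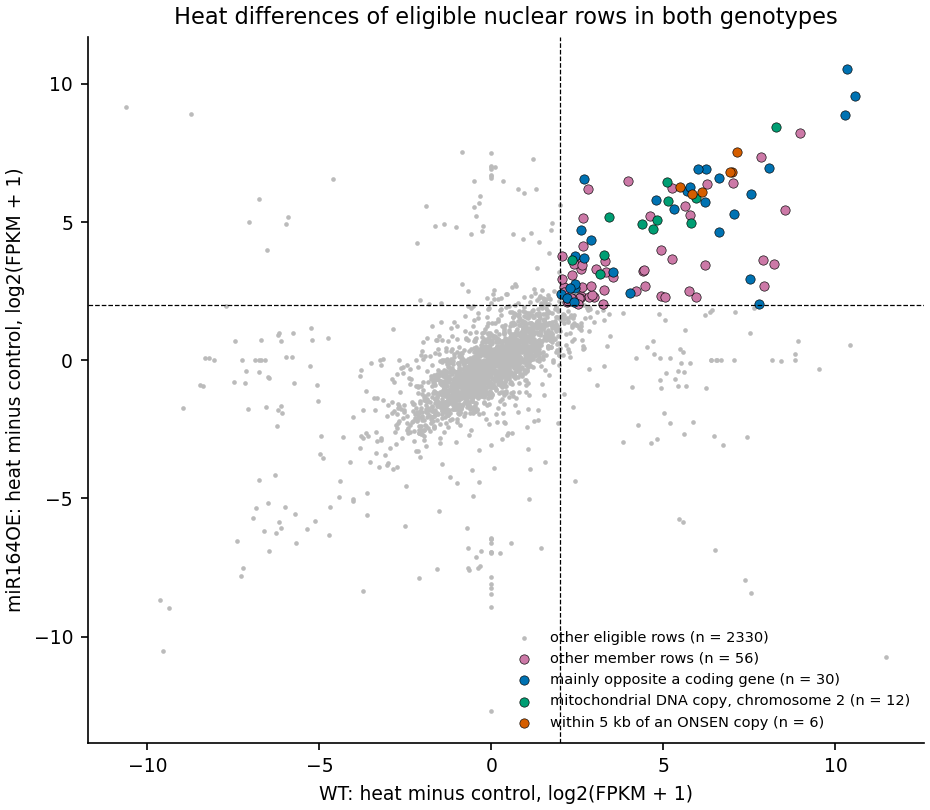
Heat difference in log2(FPKM + 1) in miR164OE against that in WT for the 2434 eligible rows, with the 104 members coloured by position and dashed lines at the limit of 2. The members lie above both lines by the choice of rows, and the 6 rows beside ONSEN lie close together between 5.47 and 7.54.

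The share of members 2-fold apart between the genotypes in heat was near that of all eligible rows. The rule set no limit on this contrast, which rests on the same 4 libraries that the rule used. In heat, 7 members (6.73%) were at least 2-fold higher in miR164OE than in WT and 8 (7.69%) were at least 2-fold lower, against 6.7% and 7.52% of eligible rows. In control, 18 (17.3%) were higher and 16 lower, against 9.2% and 8.22%. Over the 61 members above 0 in both controls these were 5 (8.2%) and 12 (19.7%), and the share of eligible rows above 0 in both controls is not given here. The median difference of miR164OE from WT over the members was 0.00 in control and 0.05 in heat. In control it includes 26 members listed at 0 in both controls, whose difference is 0 for that reason. Over all eligible rows the medians were 0.007 and -0.13.

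The heat differences of the genotypes lay less than 1 apart in 65 members. The difference was larger in miR164OE by at least 1 in 15 members (14.4%) and smaller in 24 (23.1%), against 11.7% and 15.8% of eligible rows. Of these 39 members, 16 were listed at 0 in 1 control and 7 in both. The 5 members farthest apart, AT3G09135, AT3G29633, AT1G68250, AT1G08557 and AT5G41765, were all listed at 0 in WT control and above 0 in miR164OE control. AT3G09135 was listed at 0 against 220 FPKM in WT and at 43.4 against 180 in miR164OE, and AT3G29633 at 0 against 242.5 in WT and at 23.2 against 154 in miR164OE. AT1G68250 was listed at 0 against 295 FPKM in WT and at 3.70 against 51.2 in miR164OE, and AT1G08557 at 0 against 181 in WT and at 26.2 against 210 in miR164OE. AT1G08973, opposite the nuclease gene ENDO2, was the lowest member in WT heat, listed at 0 against 4.42 FPKM in WT and at 31.2 against 193 in miR164OE.

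A total of 26 members (25%) were listed at 0 in both controls, against 1.68% of eligible rows, and 17 in 1 of them. The rule favours such rows, and it allows no member below 3 FPKM in a heat library, so these counts describe the choice of rows. By the estimate of 1 fragment, 54 of the 87 members with an estimate had under 10 fragments in the controls together. Of the 17 shorter members, which have no estimate, 14 were listed at 0 in both controls. Of the 10 members with the highest smaller heat difference, 7 were listed at 0 in both controls and 4 had under 300 exon bases. The 61 members above 0 in both controls had heat differences from 2.03 to 7.15 in WT, with a median of 2.89, and from 2.03 to 7.54 in miR164OE, with a median of 3.20. The members' summed level was 2332 against 30564 FPKM in WT, or 0.123% and 2.77% of the nuclear sum, and 2312 against 31269 in miR164OE, or 0.117% and 3.04%. The ratio of the sums was 13.1 in WT and 13.5 in miR164OE, and 11.4 and 10.6 without the rows of the mitochondrial DNA copy.

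Just inside the limit lay AT3G09135, PME42, AT3G01205, EXPA20 and AHL17, whose smaller heat differences were 2.03 to 2.05. Just outside lay AT3G46658, AT1G04803, AT4G16670, AT3G05845 and AT3G49980, at 1.93 to 1.99. AT3G46658 had 31.7 against 129 FPKM in WT and 2.15 against 155 in miR164OE, and AT1G04803 had 7.23 against 52.1 in WT and 4.30 against 20.006 in miR164OE. AT4G16670 had 51.6 against 206 FPKM in WT and 50.7 against 225 in miR164OE, and AT3G05845 had 106 against 413 in WT and 46.6 against 437 in miR164OE. AT3G49980 had 8.81 against 68.5 FPKM in WT and 18.49 against 73.2 in miR164OE. AT1G04803 and AT3G49980 fell short of the limit in miR164OE, and the others in WT.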

How the data were processed

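RNA from 4 seedling libraries was compared. The authors deposited 1 table of FPKM values, with 1 column per library, and per the submitters' processing notes bcl2fastq 2.1.7, TopHat and Cufflinks were used with the build TAIR10. The sources used here do not give the strand setting or the depth. Row codes were matched to the TAIR10.1 annotation, where 32538 rows had a gene and 22475 of 22477 loci with 1 row agreed in both ends. Differences were computed on log2(FPKM + 1) with a pseudocount of 1 in Python 3.11.15 with pandas 2.3.3. Exons were matched to the organelle and nuclear genomes with BLAST 2.17.0 at 95% identity or more over at least 50 bases. The FPKM of 1 fragment was the mode of FPKM times length over rows of 800 to 2500 bases under 6 FPKM, and is approximate. The selection was tested on simulated data. The members and gene lists were chosen with earlier results of these data known. Full values were given for the 10 members highest in their smaller heat difference, members on a list or within 10000 bases of another, those next to the limit and the 5 farthest apart between genotypes, and further members were named by function after their values were seen. With 1 library per group and members selected on the same values, no test was run. Alternatives changed the pseudocount, the minimum level and span, the scaling and the distances.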

Additional observations from a re-analysis of the deposited data

How the results depend on the processing

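No paired analysis was possible because the labels carry no replicate numbers shared between groups. Each group had 1 library, so none was left out. The 104 members became 263 rows under a minimum mean of 5 FPKM, 414 with no minimum and 302 after scaling the nuclear rows to the same sum, and all 3 sets held all 104. With a pseudocount of 5, 83 rows remained, and the median heat difference was 3.10 in WT and 3.03 in miR164OE. As given, the members' median heat difference was 4.38 in WT and 3.65 in miR164OE, and rescaling moved it to 5.13 and 4.51. Members overlapping a gene on the other strand numbered 37 when at least 50% of the exon bases had to overlap. Members with another member close by numbered 6 within 2000 bases and 22 within 50000 bases. A heat shock element of 3 adjoining units was found upstream of 0 members. Added after the values were seen, an exon length of at least 300 bases kept 87 members, leaving out the mitochondrial DNA copy kept 92 and leaving out rows listed at 0 in both controls kept 78. Depth limits the low controls most, since 54 of the 87 members with an estimate had under 10 control fragments.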

Other observations

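Further members lie beside genes of structural and small RNAs, and were named after their values were seen. AT3G41762, on the strand opposite to an 18S ribosomal RNA gene 811 bases away, had, control against heat, 121 against 1006 FPKM in WT and 123 against 1227 in miR164OE, and a copy of its exons lies elsewhere in the nuclear genome. AT5G08855, opposite genes of small nucleolar RNAs, which guide the modification of ribosomal RNA, was listed at 0 against 29.2 FPKM in WT and at 18.3 against 94.5 in miR164OE. AT4G24413, opposite the precursor of the microRNA miR824, was listed at 0 in both controls and at 53.9 and 37.1 FPKM in WT heat and miR164OE heat.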
